A study of Mus musculus with 18 samples.

Results

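Day 28 was compared with day 21 after wire injury of the mouse carotid artery, the last interval of a time course of the healing vessel wall. The comparison took the 3 libraries labelled day 28 and the 4 labelled day 21, 7 of 18 libraries in all, and all 35655 genes of the count table, of which 10312 had enough counts to be tested. The remaining libraries came from day 7 (4), day 14 (3) and day 0 (4), the last labelled as taken pre-injury. All mice were wild-type (WT) males on the C57/BL6 background, operated at 11 weeks, kept on normal chow, and no other allele or drug is stated. A wire was passed through the left carotid only, and the right carotid was the study's control. Which vessel gave the day 0 libraries is not stated beyond the pre-injury label. Up to 70 stained frozen sections per sample, with the outer elastic lamina and the neointima in them, were cut out by laser, so the tissue was chosen by its morphology and not by cell type. The study describes these samples as pooled. Each column of the count table carries a number, and 3 day 0 libraries (replicates 2, 3 and 4) carry the same numbers as 3 day 21 libraries (replicates 1, 3 and 4), while the day 28 numbers recur nowhere. No source says what the number stands for, so whether those libraries came from the same mice is not known here, and p-values measure the spread between libraries.

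Wire injury strips the endothelium and stretches the wall, after which smooth muscle cells turn down their contractile genes, divide and move inwards to form the neointima. These cells, with fibroblasts, secrete the collagens, elastin, fibronectin and proteoglycans of the new layer, while neutrophils and macrophages enter the wall and later leave it or die there. Fibrillar collagen is made as a precursor that is hydroxylated and folded in the endoplasmic reticulum, trimmed outside the cell, assembled into fibrils and cross-linked by lysyl oxidase, which also cross-links elastin on its scaffold of fibrillin microfibrils.

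Transcripts were measured by MACE, which counts reads near the 3′ end of each polyadenylated transcript, so the level of a gene is given in CPM, its count scaled to a fixed library size and corrected for composition. The 7 libraries held 440675 to 878310 counts, the smallest and the largest total of all 18, and the totals of the 2 days overlapped. In such bulk tissue, fewer cells of a type and less RNA per cell cannot be told apart. Once every library was thinned to 440675 counts, the day 21 libraries held a count for 12349 to 12752 genes, day 28 replicate 1 for 11827, and day 28 replicates 2 and 3 for 10619 and 10416. Day 28 replicate 1 also stood apart from the other day 28 libraries in heat shock genes. Hspa8, a constitutive chaperone, stood at 4833, 671 and 793 CPM in the 3 day 28 libraries, and the small chaperone Hspb1 at 3685, 322 and 214 CPM. Neither gene passed the test (adjusted p = 0.687 and 0.347). Skeletal muscle markers were low, with summed levels of the list at 267, 6.05, 0 and 2.33 CPM on day 21 and 1.44, 0 and 11.2 CPM on day 28, so that muscle transcripts stood out in day 21 replicate 1. The part of either difference in the results was not tested.

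A gene was called where edgeR's quasi-likelihood test, fitted over all 18 libraries, gave a Benjamini-Hochberg adjusted p under 0.05. Of 10312 genes tested, 70 were called, and 59 of them (0.572% of all genes tested) were lower and 11 (0.107%) higher on day 28 than on day 21. The median log2 fold change over all genes tested was -0.07, with 54.4% of them negative, the median over the lower genes was -2.61 and over the higher genes 1.54. Every day 28 library lay below every day 21 library for all 59 lower genes, an arrangement that 8.3% of all genes tested showed, and above it for all 11 higher genes, against 5.44% of all genes tested. The genes were called on these same libraries, so this separation is no further support for the calls. Of the lower genes, 18 were in the lists of matrix genes, 7 in the lists of immune genes and 28 in no list. All the lists were chosen with earlier results of these data known. They held 934 genes, so most of the 10312 genes tested were in none. With scaling by library totals alone, the split was 54 lower and 34 higher, so the lower share went from 84.3% to 61.4%. Without day 28 replicate 1, the library with high heat shock genes, 410 genes were called, 338 of them lower.

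**Figure D1:**
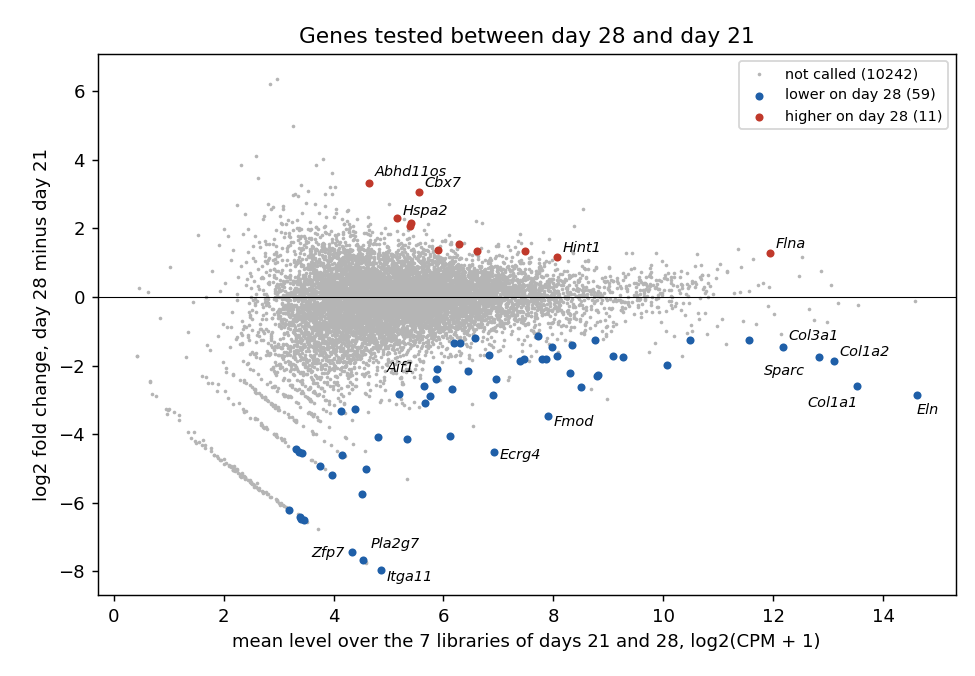
Each point is 1 of the 10312 genes tested, with its mean level over the 7 libraries on the horizontal axis, log2(CPM + 1), and its log2 fold change of day 28 minus day 21 on the vertical axis. The 59 genes called lower (blue) include the very abundant Eln, Col1a1, Col1a2 and Sparc, the 11 called higher (red) include Flna, and the diagonal streaks at the lower left are genes with few or no counts on day 28, for which the fitted fold is no measure of size.

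Genes of type I and type III collagen and 1 chain of type V collagen fell. Col1a1 (chr11:94827050-94843868 on GRCm39, plus strand), which encodes the α1 chain of type I collagen, stood at 27256, 17534, 10743 and 17665 CPM on day 21 and 2719, 2550.2 and 3717 CPM on day 28. The highest day 28 library was thus below the lowest day 21 library, and the fold was 6.11 (log2 fold change -2.61, SE 0.31, adjusted p = 7.97e-05). Its partner chain gene Col1a2 (chr6:4504814-4541555, plus strand) stood at 15288, 13001, 8097 and 14479.6 CPM on day 21 and 3076, 3508 and 3931 CPM on day 28, again with no overlap (log2 fold change -1.86, SE 0.25, adjusted p = 6.17e-04). Col3a1 (chr1:45350698-45395840, plus strand), whose product forms the type III fibrils of distensible tissue, stood at 5655, 7302, 6122 and 6210.2 CPM on day 21 and 2409, 2248 and 2275 CPM on day 28 (log2 fold change -1.45, SE 0.22, adjusted p = 0.00128). The 3 day 28 libraries of Col3a1 were almost level with each other. Its exons share positions with the model Gm54819 on the same strand, so reads there can be split between them. Col5a2 (chr1:45412554-45542442, minus strand), a chain of the type V collagen that sets fibril width, stood at 895, 1053, 879.8 and 705 CPM on day 21 and 266, 289 and 236 CPM on day 28 (log2 fold change -1.74, SE 0.26, adjusted p = 0.00128).

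In the list of fibrillar collagens and their assembly, 18 of 24 genes were tested, 6 were called lower and none higher, and all 18 had a negative fold change, with a median of -1.34. Besides those above, and named after their values were seen, Col12a1, a collagen that decorates fibril surfaces, and Pcolce, which speeds the trimming of procollagen, were called. Col12a1 stood at 135, 226, 46.0 and 53.5 CPM on day 21 and 4.31, 0 and 16.0 CPM on day 28, with 0 counts in 1 day 28 library (log2 fold change -4.05, SE 0.96, adjusted p = 0.0464). Pcolce stood at 539, 464, 284 and 228 CPM on day 21 and 116, 79.4 and 152 CPM on day 28 (log2 fold change -1.71, SE 0.36, adjusted p = 0.0208), and its exons overlap those of Fbxo24 on the same strand. Summed over the list, the levels were 52883, 41669, 28168 and 41254 CPM on day 21 and 9745, 9963 and 11714 CPM on day 28, which places day 28 inside the day 0 range of 7133 to 11375 CPM for 2 of its 3 libraries and just above it for the third. Leaving out any 1 of the 7 libraries kept the calls of Col1a1, Col1a2, Col3a1 and Col5a2, at a largest adjusted p of 0.00458, 0.0146, 0.0248 and 0.0248. The calls of Pcolce and Col12a1 were lost without day 28 replicate 2 (adjusted p = 0.148 to 0.172) and without day 28 replicate 3 (0.0577 to 0.0660) and that of Col12a1 without day 28 replicate 1 (0.0590). Pcolce (replicates 1 and 2) and Col12a1 (replicates 1, 2 and 4) each lost it when that day 21 library was left out (0.0542 to 0.108). It was also lost with no day 0 library in the fit for Col12a1 (0.0573).

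The enzymes that modify and fold collagen did not pass the test. None of the 21 genes tested in that list was called, and the median was -0.54. P4ha1, a prolyl hydroxylase subunit, stood at 135, 149, 186 and 158 CPM on day 21 and 469.6, 34.7 and 43.1 CPM on day 28, so that day 28 replicate 1 was above all day 21 libraries and the other day 28 libraries were below them. Serpinh1, the collagen chaperone HSP47, stood at 1851, 2202, 1784 and 1726 CPM on day 21 and 1874, 852 and 911 CPM on day 28 (adjusted p = 0.227).

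The elastic fibre genes showed a large drop in few members. Eln (chr5:134731445-134776322, minus strand), the gene of elastin, stood at 43589, 42892, 33479.9 and 38297 CPM on day 21 and 7644, 2972 and 5748 CPM on day 28. The day 28 libraries were all below the day 21 libraries and, in proportion, spread more widely among themselves than the day 21 libraries did, with a fold of 7.25 (log2 fold change -2.86, SE 0.53, adjusted p = 0.00774). Lox (chr18:52649136-52663110, minus strand), encoding lysyl oxidase, stood at 1075, 2061, 1717 and 1475 CPM on day 21 and 566, 329 and 291 CPM on day 28 (log2 fold change -1.9986, SE 0.30, adjusted p = 0.00128). Fbn1 (chr2:125142514-125349913, minus strand), encoding the fibrillin of the microfibril, stood at 545, 710.4, 526 and 507 CPM on day 21 and 317, 215 and 189 CPM on day 28 (log2 fold change -1.25, SE 0.26, adjusted p = 0.0243). These 3 were the called genes among 22 tested, where the median was -0.67 and 15 fold changes were negative. The Lox call was kept without any 1 library. The calls of Eln and Fbn1 were lost without day 28 replicate 2 (adjusted p = 0.0881 to 0.138) and without day 28 replicate 3 (0.0596 to 0.131). Fbn1 (replicate 2) lost it when that day 21 library was left out (0.0678).

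**Figure D2:**
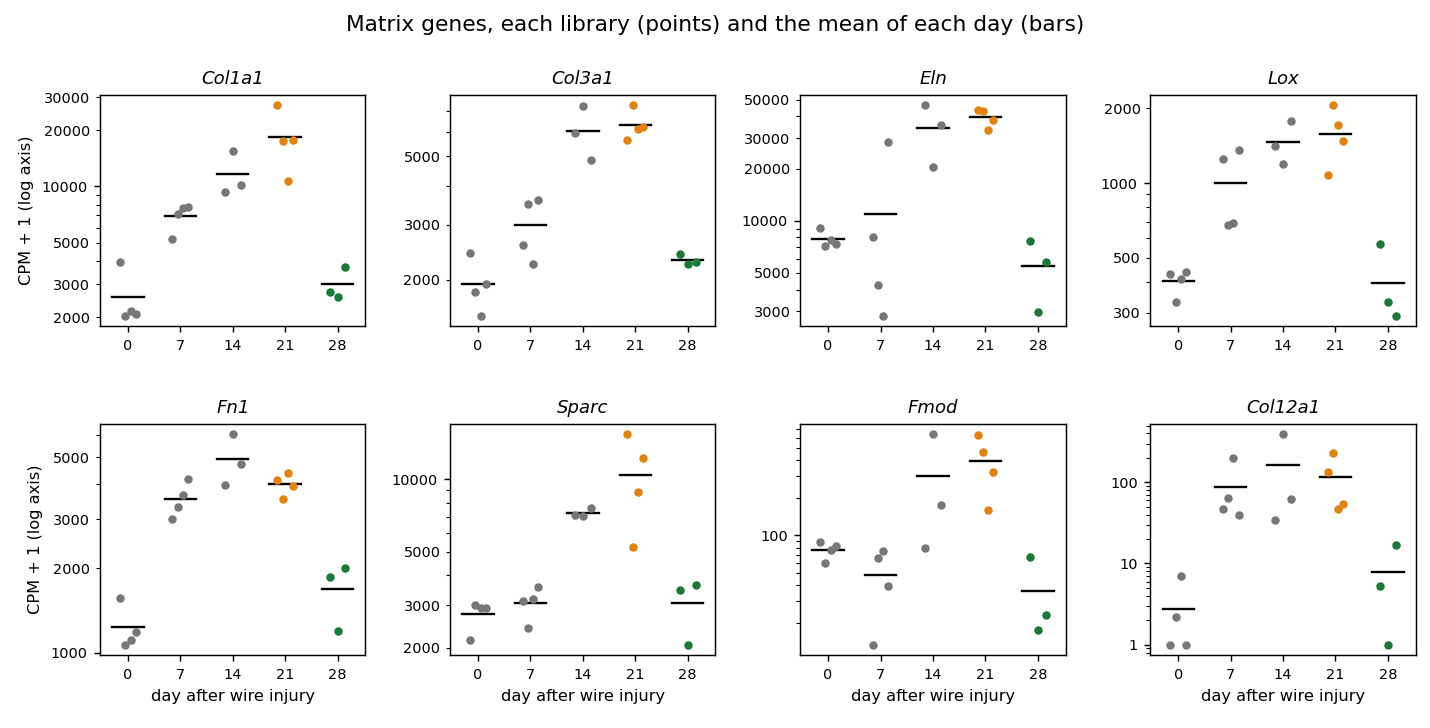
Points are the libraries and bars the mean of each day for 8 matrix genes, with the day after injury on the horizontal axis and CPM + 1 on a log vertical axis that differs between genes. In all 8 panels the 3 day 28 libraries (green) lie below the 4 day 21 libraries (orange). For Col1a1, Col3a1, Eln, Lox, Fn1 and Col12a1 the day 7 and day 14 means lie above the day 0 mean. The day 7 mean of Eln is raised by replicate 4 (28344 CPM), and that of Fmod lies below its day 0 mean.

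Among matricellular and adhesive glycoproteins, 6 of 26 genes tested were lower and none higher, with a median of -0.58. Sparc (chr11:55285317-55314067, minus strand), a collagen-binding protein of remodelling tissue, stood at 15387, 5241, 8890.0 and 12202 CPM on day 21 and 3487, 2061 and 3656 CPM on day 28 (log2 fold change -1.77, SE 0.28, adjusted p = 0.00234). The day 21 libraries of Sparc differed by more than 2-fold among themselves, and the lowest of them was still above the highest day 28 library. Fn1 (chr1:71624673-71692419, minus strand), the gene of fibronectin, stood at 4145, 3532, 4371 and 3946 CPM on day 21 and 1861, 1197 and 2007 CPM on day 28 (log2 fold change -1.24, SE 0.22, adjusted p = 0.00751). Ccn4 and Ccn5, secreted proteins of the CCN family, had log2 fold changes of -2.89 (SE 0.58, adjusted p = 0.0136) and -2.22 (SE 0.48, adjusted p = 0.0258). Ccn4 stood at 82.8, 70.6, 90.4 and 95.4 CPM on day 21 and 17.2, 6.62 and 9.59 CPM on day 28. The other called genes, Thbs1 and Cthrc1, are named after their values were seen. Thbs1, encoding thrombospondin-1, stood at 699, 394, 561 and 612 CPM on day 21 and 221, 26.5 and 27.2 CPM on day 28 (log2 fold change -2.61, SE 0.60, adjusted p = 0.0435), so that day 28 replicate 1 was well above the other day 28 libraries. Cthrc1, a secreted protein of injured arteries, stood at 85.2, 44.4, 31.2 and 20.9 CPM on day 21 and 7.18, 0 and 0 CPM on day 28 (log2 fold change -4.08, SE 0.93, adjusted p = 0.0382). Sparc kept its call without any 1 library. The calls of Fn1, Ccn4, Ccn5, Thbs1 and Cthrc1 were lost without day 28 replicate 2 (adjusted p = 0.0876 to 0.172) and those of Ccn4, Ccn5, Thbs1 and Cthrc1 without day 28 replicate 3 (0.0596 to 0.158). Thbs1 (replicates 1, 2, 3 and 4), Cthrc1 (replicates 1 and 2) and Ccn5 (replicate 2) each lost it when that day 21 library was left out (0.0501 to 0.123). It was also lost with only the 7 libraries in the fit for Ccn5, Thbs1 and Cthrc1 (0.0510 to 0.0689) and with no day 0 library in the fit for Thbs1 (0.0511).

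Fewer members were called in the remaining matrix lists. Fmod, encoding the collagen-binding proteoglycan fibromodulin, stood at 628, 464, 159.5 and 319 CPM on day 21 and 66.1, 16.5 and 22.4 CPM on day 28 and was the called gene among 17 proteoglycans tested (log2 fold change -3.47, SE 0.64, adjusted p = 0.00774). Bgn, the abundant proteoglycan biglycan, stood at 9762 ± 906 CPM (SD, n = 4) on day 21 and 8651 ± 1388 CPM (SD, n = 3) on day 28, a difference within the spread (adjusted p = 0.824). Mmp2, a gelatinase, stood at 796, 918, 860.1 and 509.6 CPM on day 21 and 244, 225 and 225 CPM on day 28 and was the called gene among 26 proteases and inhibitors (log2 fold change -1.74, SE 0.31, adjusted p = 0.00691). Col8a1, a network-forming collagen of the injured wall, stood at 570.1, 1051, 428 and 638 CPM on day 21 and 164, 82.7 and 159.8 CPM on day 28 and was the called gene among 15 other collagens (log2 fold change -2.31, SE 0.50, adjusted p = 0.0270). No call was made among 12 basement membrane genes, where the median was 0.18 here but -0.27 with DESeq2 and -0.28 with no filter on low counts. None of 23 cartilage and mineralization genes was called, and Mgp, the matrix Gla protein that limits calcification, stood at 27879, 23835, 26458 and 22719 CPM on day 21 and 22302, 22937 and 24874 CPM on day 28. Col2a1, the collagen of cartilage, stood at 859, 10.1, 0 and 2.33 CPM in the day 21 libraries, so that 1 library held nearly all of it. The laminin gene Lama4, the protease inhibitor gene Timp1 and the cartilage factor gene Sox9 did not pass (adjusted p = 0.338, 0.107 and 0.538). The calls of Fmod, Mmp2 and Col8a1 were lost without day 28 replicate 2 (adjusted p = 0.0565 to 0.155) and without day 28 replicate 3 (0.0559 to 0.0793). Col8a1 (replicates 2 and 4) lost it when that day 21 library was left out (0.0534 to 0.0772).

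Over all matrix lists together, 172 of 222 genes were tested, 18 were lower and none higher, 125 fold changes were negative, and the median was -0.63, against -0.07 and 0.572% called lower over all genes tested. The lists were chosen with earlier results of these data known, so these comparisons describe the lists and give no independent support. The summed level of all matrix lists was 206567, 173791, 171692 and 181082 CPM on day 21 and 105411, 86704 and 99017 CPM on day 28, so the groups did not overlap, and the day 0 range was 77609.9 to 89868 CPM. Abundant genes weighed most in this sum, with means on days 21 and 28 of 39564 and 5454 CPM for Eln. For Col1a1 they were 18299 and 2995 CPM. The mean sum of the proteoglycan list went from 16168 to 13470 CPM and that of the cartilage list from 28605 to 26148 CPM. Basement membrane was the only matrix list whose mean sum rose, from 2716 to 3855 CPM. Without day 28 replicate 1, 31 matrix genes were lower. Without day 28 replicate 2 and without replicate 3, 6 and 7 were lower.

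The promoters of a pair of the leading collagen genes are shown because these genes both fell and lead the matrix calls. The sequences are RefSeq's for build GRCm38.p6, an older build than that of the gene positions above, and run from 250 bases before the transcript start to 50 after it, on the plus strand. They lie at chr6:4505368-4505667 for Col1a2, with capitals on the Sp1-type letters GGGCGG, and at chr1:45311288-45311587 for Col3a1, with capitals on the TATA-box letters TATAAA. The capitals begin 205 and 188 bases before the start in Col1a2 and 117 bases before it in Col3a1. Whether these letters act in either promoter was not tested.
Col1a2: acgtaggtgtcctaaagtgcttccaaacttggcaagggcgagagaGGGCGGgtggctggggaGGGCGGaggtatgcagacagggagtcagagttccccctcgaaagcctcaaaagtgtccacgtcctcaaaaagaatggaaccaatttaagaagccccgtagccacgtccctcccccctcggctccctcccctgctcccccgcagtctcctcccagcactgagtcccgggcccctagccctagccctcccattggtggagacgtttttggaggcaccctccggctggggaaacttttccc
Col3a1: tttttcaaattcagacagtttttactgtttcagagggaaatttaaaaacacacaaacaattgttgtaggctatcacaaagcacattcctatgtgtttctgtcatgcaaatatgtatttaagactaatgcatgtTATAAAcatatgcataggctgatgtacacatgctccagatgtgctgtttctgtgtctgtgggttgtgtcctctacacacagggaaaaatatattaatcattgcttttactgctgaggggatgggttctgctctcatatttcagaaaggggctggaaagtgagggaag
RefSeq promoters matched 41 of the 59 lower genes and 9 of the 11 higher genes. Searched on both strands, GGGCGG was in 18 of the 41 lower promoters and 8 of the 9 higher promoters, where 70.6% of the 8168 promoters of tested genes held it. The AP-1 letters TGANTCA were in 8 of the 41 and in none of the 9, against 6.44% of all. TATAAA was in 6 of the 41 and in none of the 9, against 8.74%. The PU.1 letters GAGGAAGT were in 5 of the 41, those of Cd53, Cd72, Ctss, Fstl1 and Itga11, and in 1 of the 9, that of Pdzrn3, against 3.77%. The CArG box, which serum response factor binds in muscle genes, was in none of either group, against 1.65%. These matches describe letters in a window and carry no test.

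Of 34 macrophage markers tested, 4 fell and none rose, and 31 had negative fold changes. Aif1 (chr17:35387384-35395053, minus strand), which encodes IBA1, an actin-binding protein of macrophages, stood at 123, 82.7, 60.8 and 83.8 CPM on day 21 and 15.8, 14.9 and 19.2 CPM on day 28. The groups did not overlap and the day 28 libraries lay close together (log2 fold change -2.39, SE 0.43, adjusted p = 0.00770). Ms4a7, a membrane protein of macrophages, stood at 84.0, 92.8, 78.9 and 48.9 CPM on day 21 and 14.4, 11.6 and 11.2 CPM on day 28 (log2 fold change -2.60, SE 0.57, adjusted p = 0.0288). Ctss, encoding cathepsin S, stood at 213, 133, 284 and 128 CPM on day 21 and 46.0, 3.31 and 59.1 CPM on day 28 (log2 fold change -2.38, SE 0.56, adjusted p = 0.0449), with day 28 replicate 2 far below the other libraries. Cd53, a tetraspanin of leukocytes, stood at 31.9, 4.04, 60.8 and 18.6 CPM on day 21 and 2.87, 0 and 0 CPM on day 28, at least 6.16-fold lower when a floor of 3 counts per library was set for day 28 (adjusted p = 0.0482). The median of the list was -1.67, or -1.63 with the genes under the floor set to their bound. Defining markers that did not pass the test had lower means too. Lyz2, encoding lysozyme, stood at 726, 1937, 1404 and 726 CPM on day 21 and 300.2, 389 and 497 CPM on day 28 (adjusted p = 0.0761), and Cd68 at 36.7, 62.6, 74.0 and 25.6 CPM on day 21 and 7.18, 26.5 and 4.79 CPM on day 28 (adjusted p = 0.144). The summed level of the list was 3797, 4682, 4184 and 2943 CPM on day 21 and 1264, 1212 and 1732 CPM on day 28, without overlap, and on day 0 it was 238 to 769.7 CPM, below every day 28 library. The calls of Aif1, Ms4a7, Ctss and Cd53 were lost without day 28 replicate 2 (adjusted p = 0.0657 to 0.172) and those of Ms4a7, Ctss and Cd53 without day 28 replicate 3 (0.0651 to 0.163). Ms4a7 (replicates 1, 2 and 3), Ctss (replicates 1, 2, 3 and 4) and Cd53 (replicates 1, 3 and 4) each lost it when that day 21 library was left out (0.0501 to 0.119). It was also lost with only the 7 libraries in the fit for Ctss and Cd53 (0.0736 to 0.104).

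Other leukocyte and signalling genes were called singly. Csf3r, the receptor for the neutrophil growth factor G-CSF, stood at 8.28, 18.2, 21.4 and 9.31 CPM on day 21 with 0 counts in all 3 day 28 libraries and was the called gene among 10 neutrophil markers, at least 3.05-fold lower (adjusted p = 0.0347). Neutrophil S100a8 was carried by single libraries, at 7.10, 4.04, 242 and 2.33 CPM on day 21 and 0, 0 and 133 CPM on day 28. Il33, an alarmin cytokine, stood at 20.1, 6.05, 34.5 and 6.98 CPM on day 21, again with 0 counts on day 28, and was the called gene among 23 chemokines and cytokines, at least 3.61-fold lower (adjusted p = 0.0446). The median of the chemokine and cytokine list was -2.64, or -1.22 with 10 genes set to their bound. Ly6e, an interferon-stimulated surface protein, stood at 471, 264, 257 and 284 CPM on day 21 and 66.1, 109 and 101 CPM on day 28 (log2 fold change -1.80, SE 0.34, adjusted p = 0.00919), the called gene among 32 interferon-stimulated genes, where the median was -0.996. The calls of Csf3r and Il33 were lost without day 28 replicate 2 (adjusted p = 0.125 to 0.150) and those of Csf3r, Il33 and Ly6e without day 28 replicate 3 (0.0596 to 0.131). Il33 (replicates 1, 2, 3 and 4) and Csf3r (replicates 2, 3 and 4) each lost it when that day 21 library was left out (0.0501 to 0.0985). It was also lost with no day 0 library in the fit for Il33 (0.0541) and with all libraries thinned to the smallest for Csf3r and Il33 (0.0507 to 0.0583).

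No gene was called in the lists of antigen presentation by MHC class II (12 tested, median -1.43), complement and Fc receptor signalling (27, -1.16), lipid handling and lysosomal genes of foam cells (38, -0.71) or T, B, NK and mast cell markers (5, -1.81). The median of the T, B, NK and mast cell list was -1.10 with 2 genes set to their bound. Cd74, the invariant chain of MHC class II, stood at 1037, 924, 686 and 1336 CPM on day 21 and 602, 896 and 717 CPM on day 28, with overlapping groups (adjusted p = 0.742). Gpnmb, a glycoprotein of lipid-laden macrophages, stood at 44.9, 56.5, 184 and 4.65 CPM on day 21 and 21.5, 23.2 and 43.1 CPM on day 28 (adjusted p = 0.459), and the adjusted p of the monocyte chemokine gene Ccl2 was 0.282, of the complement gene C3 0.931 and of the interferon-stimulated Ifit3 0.918. Spp1, encoding osteopontin, a matrix protein that macrophages also secrete, stood at 918, 664, 1196 and 414 CPM on day 21 and 168, 119 and 19.2 CPM on day 28, without overlap and just over the threshold (adjusted p = 0.0613). Over all immune lists, 175 of 244 genes were tested, and 7 were lower and none higher, against 0.572% called lower over all genes tested. Of their fold changes 154 were negative, against 54.4% of all genes tested. The median was -1.20, or -1.05 with 29 genes set to their bound, against -0.07 over all genes tested. These lists too were chosen with earlier results of these data known, so the comparisons give no independent support. The summed immune level was 26203, 27823, 31419 and 23175 CPM on day 21 and 16755, 15787 and 18854 CPM on day 28, against 12601 to 16135 CPM on day 0. Without day 28 replicate 1, 22 immune genes were lower. Without day 28 replicate 2, 1 was, and without replicate 3, 2 were.

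**Figure D3:**
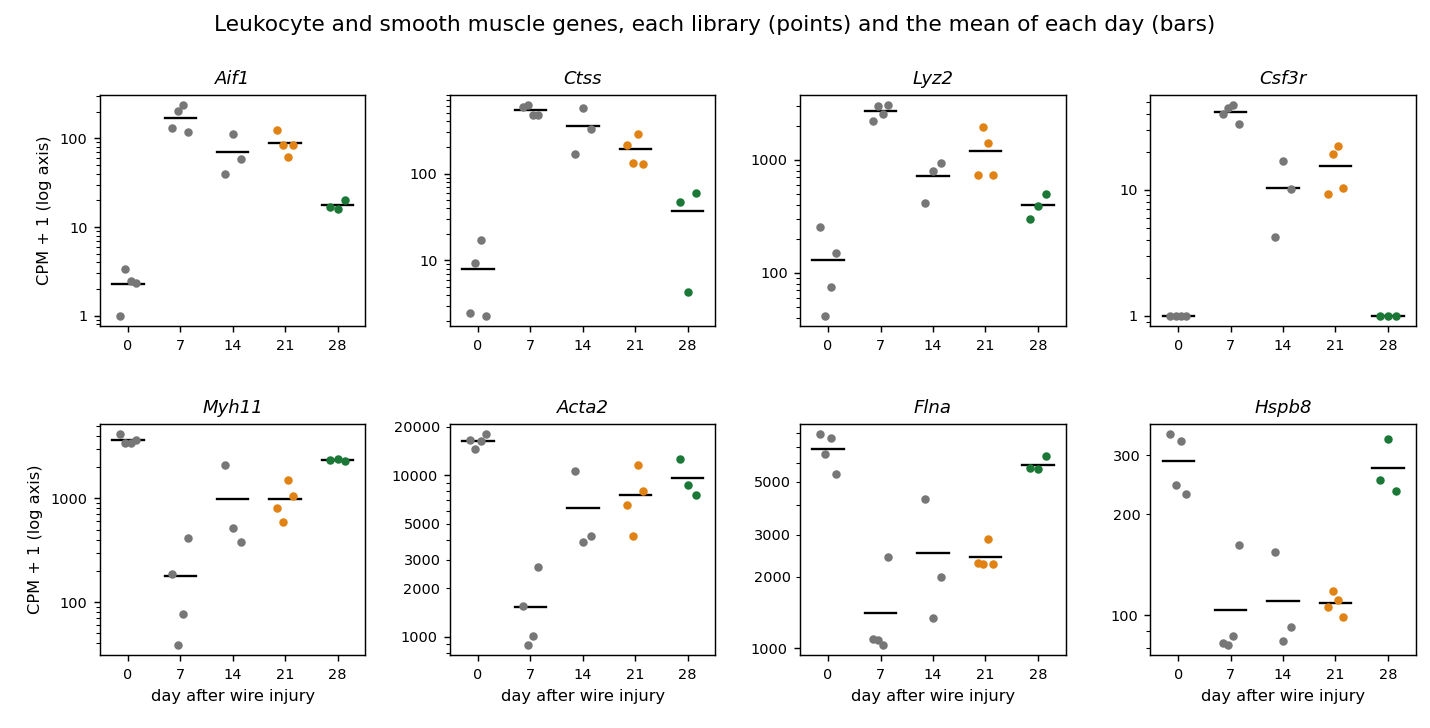
Points are the libraries and bars the mean of each day for 4 leukocyte genes (top) and 4 genes of smooth muscle or its chaperones (bottom), with the day after injury on the horizontal axis and CPM + 1 on a log vertical axis. The day 28 libraries (green) of Aif1, Ctss, Lyz2 and Csf3r lie below all day 21 libraries (orange), those of Myh11, Flna and Hspb8 lie above them, and those of Acta2 overlap them.

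Several of the lower genes that kept their call without any 1 library were in no list. Ecrg4, a secreted peptide precursor, stood at 309.9, 283, 57.6 and 168 CPM on day 21 and 11.5, 6.62 and 7.99 CPM on day 28 (log2 fold change -4.51, SE 0.65, adjusted p = 0.00102). Dhrs3, a retinaldehyde reductase, stood at 170.3, 88.8, 98.7 and 83.8 CPM on day 21 and 21.5, 6.62 and 22.4 CPM on day 28 (log2 fold change -2.70, SE 0.45, adjusted p = 0.00343). Cd72, an inhibitory receptor of B cells that macrophages also carry, stood at 103, 88.8, 74.0 and 55.8 CPM on day 21 and 10.1, 6.62 and 11.2 CPM on day 28 (log2 fold change -3.09, SE 0.52, adjusted p = 0.00422). In each of these 3 genes all day 28 libraries were far below all day 21 libraries. Pla2g7, the secreted hydrolase of platelet-activating factor, stood at 61.5, 10.1, 62.5 and 20.9 CPM on day 21 and had 0 counts in all 3 day 28 libraries, at least 8.27-fold lower (adjusted p = 0.00542). These 4 genes, with Col1a1, Col1a2, Col3a1, Col5a2, Lox, Sparc and Zfp7, were the 11 lower genes that stayed called without any 1 library. The zinc finger gene Zfp7, named after its values were seen, also had 0 counts in every day 28 library and stood at 36.7, 40.4, 39.5 and 18.6 CPM on day 21, at least 7.21-fold lower (adjusted p = 0.00751). Its exons overlap those of the model Gm49527. 

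Growth factor genes were among the lower genes as well. Igf1, insulin-like growth factor 1, stood at 114, 212, 127 and 65.1 CPM on day 21 and 35.9, 16.5 and 33.6 CPM on day 28 (log2 fold change -2.16, SE 0.40, adjusted p = 0.00774). Igfbp2, a binding protein of insulin-like growth factors, stood at 891, 367, 735 and 738 CPM on day 21 and 169, 119 and 133 CPM on day 28 (log2 fold change -2.28, SE 0.45, adjusted p = 0.0127). Fstl1, a secreted follistatin-like protein, stood at 2659, 1625, 1639.5 and 1659 CPM on day 21 and 967, 625 and 796 CPM on day 28 (log2 fold change -1.25, SE 0.25, adjusted p = 0.0131). Day 21 replicate 1 was far above the other day 21 libraries for Fstl1, and those others were still above day 28. These were the called genes of 32 tested for TGF-beta, PDGF and IGF signalling, with a median of -0.44, and Tgfb1 itself did not pass (adjusted p = 0.341). Ly6a, encoding the progenitor marker Sca-1, stood at 241, 295, 525 and 277 CPM on day 21 and 128, 82.7 and 71.9 CPM on day 28 (log2 fold change -1.82, SE 0.35, adjusted p = 0.00956) and with Igf1 made up the calls among 31 adventitial and fibroblast markers. That list had a median of -0.09, or 0.01 with scaling by library totals. Pdgfra, a fibroblast receptor, stood at 93.4, 40.4, 59.2 and 76.8 CPM on day 21 and 34.5, 38 and 20.8 CPM on day 28 (adjusted p = 0.312). The calls of Igf1, Igfbp2, Fstl1 and Ly6a were lost without day 28 replicate 2 (adjusted p = 0.0865 to 0.125) and those of Igfbp2, Fstl1 and Ly6a without day 28 replicate 3 (0.0671 to 0.0768). Fstl1 (replicate 1) lost it when that day 21 library was left out (0.0563).

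The lower genes that no rule had named were looked at after their values were seen. They include further genes of collagen handling and of leukocytes. Itga11, an integrin subunit that binds collagen, stood at 56.8, 64.6, 21.4 and 53.5 CPM on day 21 and had 0 counts on day 28, at least 10.5-fold lower (adjusted p = 0.0131). Mrc2, an endocytic collagen receptor, stood at 341, 533, 219 and 284 CPM on day 21 and 142, 69.5 and 161 CPM on day 28 (log2 fold change -1.46, SE 0.34, adjusted p = 0.0445). Srgn, the proteoglycan of leukocyte granules, stood at 66.2, 301, 266 and 123 CPM on day 21 and 25.9, 19.8 and 32 CPM on day 28 (log2 fold change -2.85, SE 0.63, adjusted p = 0.0310), and Fermt3, the kindlin of blood cells, at 36.7, 32.3, 23.0 and 37.2 CPM on day 21 and 0, 3.31 and 6.39 CPM on day 28 (log2 fold change -3.28, SE 0.73, adjusted p = 0.0311). In both, all day 28 libraries were below all day 21 libraries. Pgf, encoding placental growth factor, stood at 37.9, 157, 18.1 and 53.5 CPM on day 21 and 10.1, 0 and 0 CPM on day 28 (log2 fold change -4.15, SE 0.98, adjusted p = 0.0457). The calls of Itga11, Mrc2, Srgn, Fermt3 and Pgf were lost without day 28 replicate 2 (adjusted p = 0.0861 to 0.188) and without day 28 replicate 3 (0.0575 to 0.158). Mrc2 (replicates 1, 2 and 4), Fermt3 (replicates 1, 2 and 4), Pgf (replicates 1, 2 and 4) and Srgn (replicates 2 and 3) each lost it when that day 21 library was left out (0.0543 to 0.137). It was also lost with only the 7 libraries in the fit for Mrc2, Fermt3 and Pgf (0.0763 to 0.115) and with no day 0 library in the fit for Mrc2 and Pgf (0.0527 to 0.0573). In all, 16 of the 59 lower genes had at most 3 counts in every day 28 library, 7 had none in any, and 15 had none in day 28 replicates 2 and 3, the libraries with fewer genes detected. The same shares over all genes tested were not counted. Among the 1690 genes with a mean of at least 100 CPM over all 18 libraries, 28 were lower and 3 higher, against 59 and 11 of all 10312 genes tested.

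Of the 11 genes that rose, 10 were in no list. The lists held 934 genes in all, so most of the 10312 genes tested were in none either. Hint1, a small nucleotide hydrolase, stood at 177, 186, 171 and 158 CPM on day 21 and 322, 359 and 491 CPM on day 28 and rose 2.25-fold (log2 fold change 1.17, SE 0.22, adjusted p = 0.00946). The day 21 libraries were close together and all below day 28. Hspb8, a small heat shock protein of muscle, stood at 105, 117, 110.2 and 97.7 CPM on day 21 and 253, 334 and 233 CPM on day 28 (log2 fold change 1.34, SE 0.29, adjusted p = 0.0258), and Hspa2, of the HSP70 family, at 10.6, 24.2, 11.5 and 4.65 CPM on day 21 and 35.9, 94.3 and 60.7 CPM on day 28 (log2 fold change 2.30, SE 0.47, adjusted p = 0.0194). In both, day 28 replicate 1, the library in which Hspa8 and Hspb1 were highest, was not the highest. Cbx7, a Polycomb protein, stood at 11.8, 4.04, 9.87 and 18.6 CPM on day 21 and 77.6, 137 and 62.3 CPM on day 28 (log2 fold change 3.05, SE 0.66, adjusted p = 0.0288). Both genes of proteins that act on tubulin, Tppp3, which promotes microtubule assembly, and Ttl, which restores tubulin's terminal tyrosine, had log2 fold changes of 2.16 (SE 0.48, adjusted p = 0.0310) and 2.06 (SE 0.49, adjusted p = 0.0474). Rtf1, a factor of transcription elongation, stood at 33.1, 42.4, 36.2 and 58.2 CPM on day 21 and 94.8, 117 and 155 CPM on day 28 (log2 fold change 1.54, SE 0.32, adjusted p = 0.0216), and Pdzrn3, a ubiquitin ligase, at 74.5, 48.4, 54.3 and 55.8 CPM on day 21 and 155, 99.2 and 189 CPM on day 28 (log2 fold change 1.33, SE 0.31, adjusted p = 0.0445). Suclg1, a subunit of a citric acid cycle enzyme that is named after its values were seen, rose 2.56-fold (adjusted p = 0.0474). Abhd11os stood at 2.37, 6.05, 6.58 and 4.65 CPM on day 21 and 10.1, 43.0 and 95.9 CPM on day 28 (log2 fold change 3.32, SE 0.71, adjusted p = 0.0258), with a wide day 28 spread, and its exons overlap those of Abhd11 on the other strand, from which reads cannot be told apart if counting did not use the strand.

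Flna (chrX:73265347-73293456, minus strand), the gene of the actin cross-linker filamin A, was the called gene among 33 contractile smooth muscle genes tested. It stood at 2285, 2268, 2889 and 2252 CPM on day 21 and 5705, 5638 and 6392 CPM on day 28, more than a doubling without overlap (log2 fold change 1.29, SE 0.31, adjusted p = 0.0474). Of the list, 29 fold changes were positive, where 45.6% of all genes tested were, and 11 genes had every day 28 library above every day 21 library, where 5.44% of all genes tested did. This was not particular to muscle. Of 48 ribosomal protein genes, 38 were positive, 10 negative, and 12 had every day 28 library above. Of 42 nuclear genes of oxidative phosphorylation, 29 were positive, 13 negative, and 11 had every day 28 library above. The median of the contractile list was 0.55, against -0.07 over all genes tested. Myh11, the smooth muscle myosin heavy chain, stood at 816, 595, 1499.8 and 1059 CPM on day 21 and 2342, 2398 and 2296 CPM on day 28, without overlap and with day 28 libraries nearly level, but its adjusted p was 0.247. Tagln, a calponin-related protein of contractile cells, stood at 2964, 2272, 6136 and 3958 CPM on day 21 and 9998, 8226 and 7516 CPM on day 28 (adjusted p = 0.227), and Csrp1, a LIM protein of smooth muscle, at 975, 1352, 2458 and 1452 CPM on day 21 and 4089, 3850.1 and 4244 CPM on day 28 (adjusted p = 0.0631). Acta2, smooth muscle α-actin, overlapped between the groups, at 6552, 4226, 11595 and 7944 CPM on day 21 and 12633, 8649.5 and 7552 CPM on day 28 (adjusted p = 0.710). The summed level of the list was 29252, 22369, 44177 and 34069 CPM on day 21 and 62609, 53663 and 54338 CPM on day 28, so every day 28 library was above every day 21 library and below the day 0 range of 73639.8 to 80782 CPM. None of 28 genes of calcium and potassium channels and nitric oxide signalling was called (median 0.37). Kcnmb1, a subunit of the calcium-activated potassium channel of smooth muscle, stood at 105, 40.4, 145 and 102 CPM on day 21 and 279, 177 and 201 CPM on day 28, without overlap (adjusted p = 0.310).

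Of the 11 higher genes, Hint1 kept its call in 6 of the 7 fits that left out 1 library, and lost it without day 28 replicate 3 (adjusted p = 0.0863). The other 10 each lost it in 4 to 7 of those fits, at an adjusted p of 0.0501 to 0.172, so that every one of the 7 libraries ended at least 1 call. Flna kept it without day 28 replicate 1 alone, and its largest adjusted p, without day 28 replicate 3, was 0.145. With no day 0 library in the fit, it was 0.0605. With only the 7 libraries in the fit, Rtf1, Ttl, Pdzrn3, Hspa2, Tppp3 and Suclg1 lost their calls (adjusted p = 0.0521 to 0.104). Abhd11os was not tested in that fit. With all libraries thinned to the smallest, Pdzrn3 and Suclg1 lost theirs (0.0652 to 0.0750).

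Single genes of cell division and of secretion fell. Ube2c, a ubiquitin-conjugating enzyme of mitotic exit, stood at 18.9, 8.07, 13.2 and 20.9 CPM on day 21 and 0, 0 and 1.6 CPM on day 28 and was the called gene among 39 cell cycle genes, at least 3.26-fold lower (adjusted p = 0.0310). Mki67, the proliferation marker Ki-67, stood at 27.2, 32.3, 16.4 and 32.6 CPM on day 21 and 7.18, 0 and 0 CPM on day 28, with an adjusted p of 0.0909. The cell cycle median was -0.999, or -0.44 with 16 genes set to their bound. Copb2, a coat protein of vesicles that return to the endoplasmic reticulum, stood at 103, 131, 120.0 and 142 CPM on day 21 and 77.6, 52.9 and 30.4 CPM on day 28 and was the called gene among 44 genes of secretory folding (log2 fold change -1.20, SE 0.29, adjusted p = 0.0474). In that list the chaperone gene Hspa5, encoding BiP, stood at 765, 1114, 1304 and 703 CPM on day 21 and 1914, 493 and 438 CPM on day 28, with day 28 replicate 1 the highest and the other day 28 libraries the lowest of the 7. The calls of Ube2c and Copb2 were lost without day 28 replicate 2 (adjusted p = 0.146 to 0.155) and without day 28 replicate 3 (0.0645 to 0.172). Ube2c (replicates 1 and 4) and Copb2 (replicates 1, 2, 3 and 4) each lost it when that day 21 library was left out (0.0602 to 0.107). It was also lost with only the 7 libraries in the fit for Copb2 (0.145), with no day 0 library in the fit for Copb2 (0.0573), with all libraries thinned to the smallest for Copb2 (0.0674) and with scaling by library totals for Copb2 (0.0520).

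No gene was called in the other lists. The medians were -0.49 over 25 endothelial markers, -0.68 over 13 genes transcribed in mitochondria, -0.11 over 29 immediate early and stress genes, 0.06 over 18 genes of glycolysis, 0.34 over 42 nuclear genes of oxidative phosphorylation and 0.21 over 48 ribosomal protein genes. The endothelial marker Pecam1 stood at 309.9, 862, 536 and 430.5 CPM on day 21 and 576, 653 and 779.8 CPM on day 28, with overlapping groups (adjusted p = 0.724). The immediate early and stress list summed to 12160.5, 2181 and 2186 CPM in the 3 day 28 libraries, so replicate 1 stood apart there. Ldha, a lactate dehydrogenase gene of glycolysis, stood at 293, 381, 304 and 219 CPM on day 21 and 198, 137 and 197 CPM on day 28, without overlap (adjusted p = 0.292). Genes that stand for further lists did not pass, at an adjusted p of 0.648 for the immediate early Fos, 0.295 for Cox4i1 of oxidative phosphorylation, 0.416 for mitochondrial mt-Co1, 0.849 for ribosomal Rplp0 and 0.398 for the globin gene Hbb-bs. The lists of red blood cells, adipocytes, nerve and Schwann cells, platelets, lymphatic, thymic or thyroid tissue, and skeletal muscle had 5, 5, 7, 1, 3 and 3 genes tested. Defining markers of T cells (Cd3e), platelets (Ppbp), fat (Adipoq), lymphatics (Prox1) and skeletal muscle (Ckm) were too low to be tested.

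**Figure D4:**
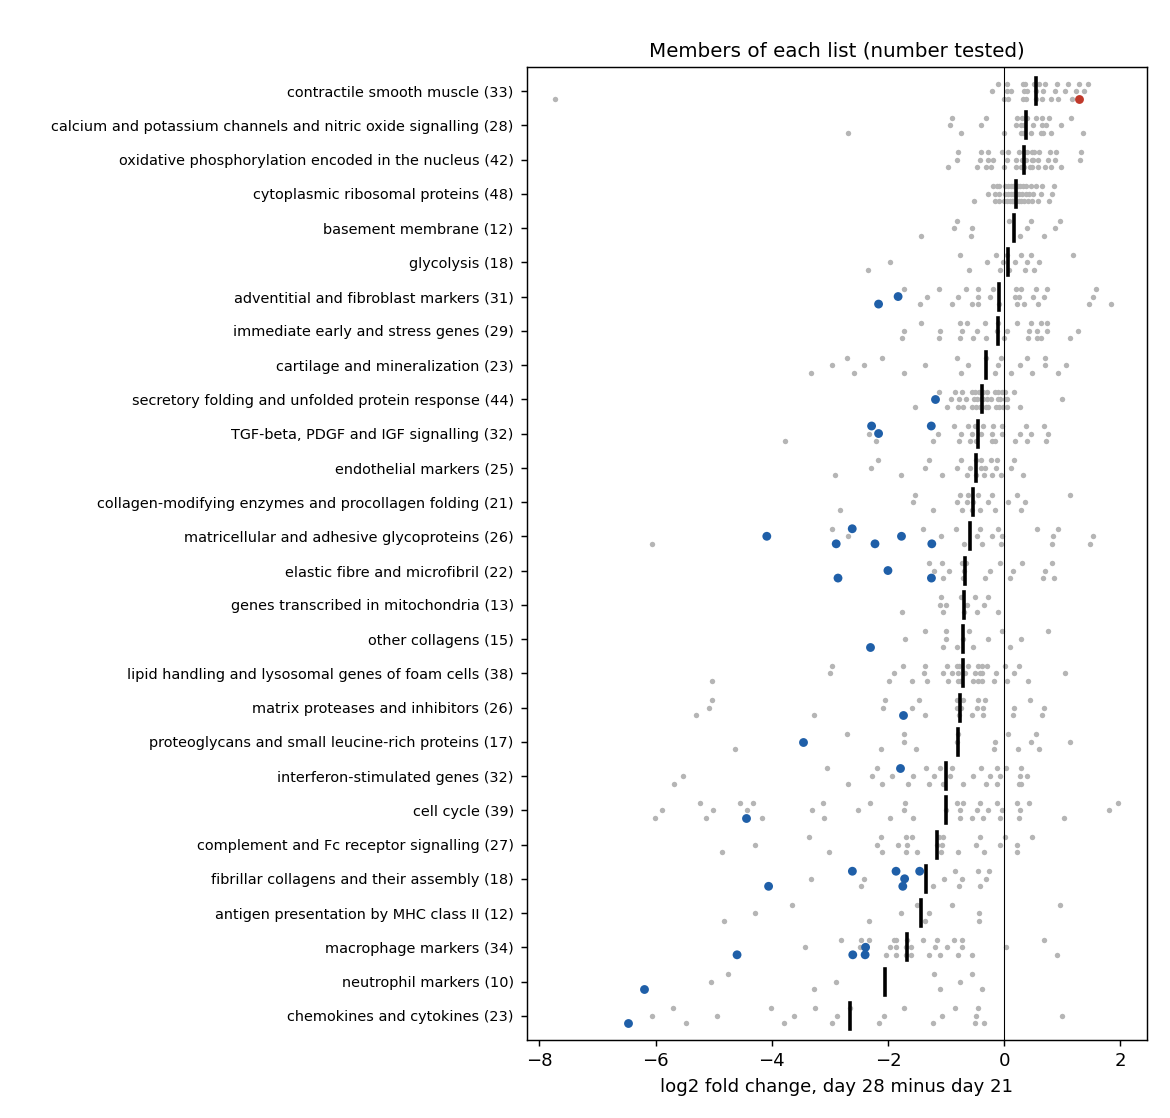
Each point is the log2 fold change of day 28 minus day 21 for 1 tested member of a list, grey where not called, blue where called lower and red where called higher, and the bar is the list's median. Lists are ordered by median from contractile smooth muscle (0.55) to chemokines and cytokines (-2.64), and the medians of lists with many genes at or near 0 counts, such as the neutrophil, chemokine and cell cycle lists, shrink when those genes are set to their bound.

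The day 7 and day 14 comparisons with day 0 placed the genes in the time course. They share no library with day 28 against day 21, but 3 of the 4 day 0 libraries carry the numbers of day 21 libraries and may not be independent of them. Of the 59 lower genes, 35 (59.3%) were called higher on day 7 than on day 0, where 11.3% of all genes tested were, and 1 was called lower, where 8.53% were. On day 14, 41 (69.5%) were called higher than on day 0, against 4.8% of all genes tested, and 1 was called lower, against 1.42%. The median log2 fold change of the 59 was 1.45 on day 7 and 2.00 on day 14, where that of all genes was 0.07 and 0.05. The 11 higher genes had medians of -1.48 and -0.89, with 6 called lower and 1 higher on day 7, and 3 called lower and none higher on day 14.

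Relative to day 0, the place of the day 28 mean differed between the lower genes. The day 28 means lay within the range of the day 0 libraries for 26 of the 59 genes, above it for 15 and below it for 18. Such counts were not made over all genes tested. Those for the lower and the higher genes therefore have no background to be read against. Col1a1 had 2549.5 ± 937 CPM (SD, n = 4) on day 0 and 2995 ± 630.5 CPM (SD, n = 3) on day 28, and Lox had 401 ± 48.6 CPM and 395 ± 149 CPM. Aif1 had 1.3 ± 0.986 CPM on day 0 and 16.6 ± 2.26 CPM on day 28, and Col8a1 had 6.85 ± 7.72 CPM and 135 ± 45.7 CPM, with both groups apart (Aif1: log2 fold change 3.44, adjusted p = 0.00657, and Col8a1: log2 fold change 4.18, adjusted p = 4.57e-04, of day 28 minus day 0). Dhrs3 had 88.2 ± 22 CPM on day 0 and 16.8 ± 8.87 CPM on day 28, below that level, with 32.6 ± 13.6 CPM on day 7, 29.0 ± 0.907 CPM on day 14 and 110.4 ± 40.4 CPM on day 21 (day 28 minus day 0: log2 fold change -2.36, adjusted p = 0.00721). Of the 11 higher genes, the day 28 mean was within the day 0 range for 3, above it for 6 and below it for 2. Flna had 6882 ± 1148 CPM on day 0 and 5911 ± 417 CPM on day 28 (log2 fold change -0.22, adjusted p = 0.792). The day 28 against day 0 and day 28 against day 21 comparisons share their day 28 libraries.

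The number of calls moved with the libraries and with the tool. All 70 called genes were also called with DESeq2, which called 301 genes in all, and with RLE normalization, which called 76. Without day 28 replicate 2, 15 genes were called, and without day 28 replicate 3, 16. Leaving out 1 day 21 library gave 32 to 50 calls. With no day 0 library in the fit, so that no column number recurred, 84 genes were called, 73 lower and 11 higher, and 58 of them were among the 70.

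**Figure D5:**
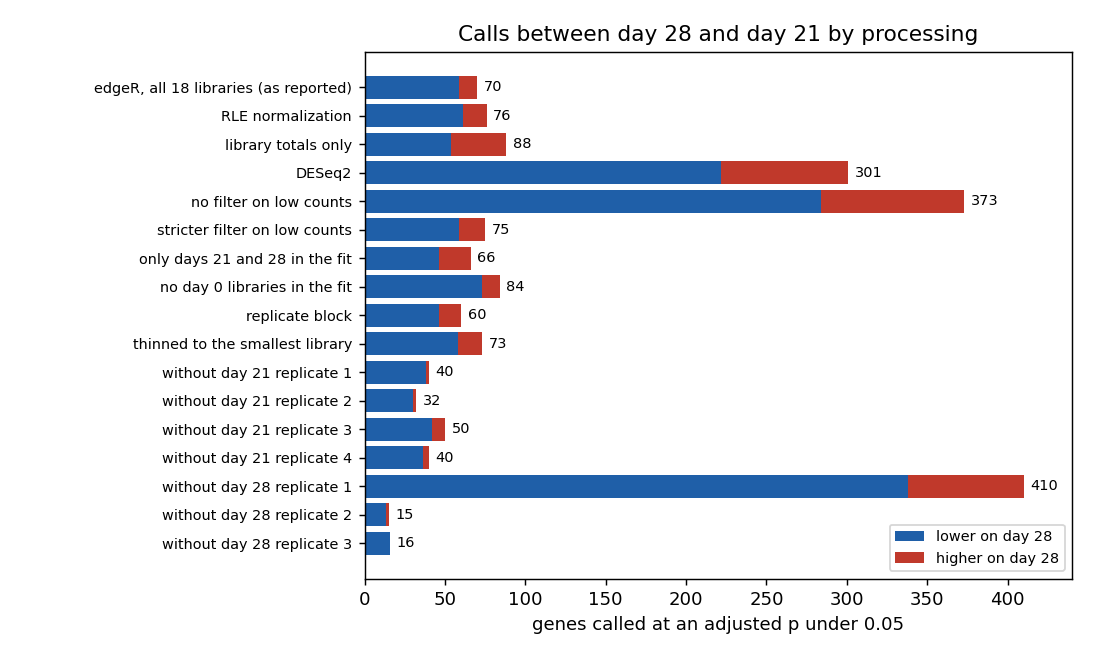
Bars give the number of genes called between day 28 and day 21 at an adjusted p under 0.05 under each processing, split into genes lower (blue) and higher (red) on day 28. The count ranges from 15 without day 28 replicate 2 to 410 without day 28 replicate 1, and genes lower on day 28 are the larger share of every bar.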

How the data were processed

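Laser-cut carotid wall was profiled by MACE in 18 libraries from 5 time points. Per the labels and the methods, PCR duplicates were removed by UMI, reads were cropped for quality and adapters, and transcripts were quantified with Salmon 1.9.0 against mm39. What the authors deposited are estimated counts, a whole number for each gene and library. The annotation release and the use of strand are not given in the sources used here. A second deposited table of normalised values (DESeq2 1.36.0 per the submitters' notes) was not used.

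Groups followed the day in the labels. Of 35655 genes, 17606 had no count, and 10312 passed filterByExpr. edgeR 4.0.16 in R 4.3.3 was fitted over all 18 libraries with the day as the only term, TMM scaling and the quasi-likelihood test, and Benjamini-Hochberg adjustment covered all genes tested. The common biological coefficient of variation was 0.449. CPM are TMM-scaled. Lists of genes (35 lists, 934 genes) were described by counts and medians without a test. The members and the lists were chosen with earlier results of these data known. Named genes were the anchors of the lists, the 10 genes in each direction with the smallest p whose groups did not overlap (predicted models left out), and up to 4 called genes per list and direction. The result of 1 anchor is not reported here. A gene with at most 3 counts in every day 28 library was compared with a floor of 3 counts per library. Positions are from GENCODE on GRCm39, and of the 70 called genes 8 share exon positions with another gene on the same strand and 41 with one on the other strand. DESeq2 1.42.0 and the other alternatives are given in the closing section. Replicate libraries differed by more than sampling noise in every pair of days 21 and 28 (chi-square per degree of freedom 3.77 to 9.61). In simulated data for this comparison over 10312 genes, edgeR recovered 46.2% of genes changed 4-fold and 5.32% of genes changed 2-fold. Of its 54 calls, 0% were false. DESeq2 recovered 48.1% and 8.51%, with 9.23% of its 65 calls false. The simulation gave genes of like level the same spread. It held no library that stood apart in the way of day 28 replicate 1. Its shares of false calls need not hold for these data.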

Additional observations from a re-analysis of the deposited data

Results flagged for a closer look

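Within the 4 day 21 libraries, a single library stood far from the other 3 for 5 named genes and for 2 summed lists, by Dixon's ratio of the gap to the range. Chance marks about 1 in 20 groups, and 7 of 106 groups tested were marked here. Day 21 replicate 1 was high for Fstl1 (2659 CPM, the others 1625 to 1659 CPM), for Ly6e (471 CPM, the others 257 to 284 CPM) and for the summed skeletal muscle list (267 CPM, the others 0 to 6.05 CPM). Day 21 replicate 3 was high for Flna (2889 CPM, the others 2252 to 2285 CPM), for the complement gene C3 (702 CPM, the others 85.2 to 159 CPM), for S100a8 (242 CPM, the others 2.33 to 7.10 CPM) and for the summed neutrophil list (799 CPM, the others 116 to 182 CPM). Flna, Fstl1 and Ly6e are called genes, and as in every called gene their day 21 libraries all lay apart from all day 28 libraries. Without the marked library, Fstl1 (adjusted p = 0.0563) and Flna (0.0629) lost their calls, and Ly6e kept its call.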

How the results depend on the processing

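The 70 calls (59 lower, 11 higher, with 18 matrix and 7 immune genes among the lower) grew to 301 with DESeq2 (222 lower, 79 higher, 32 matrix, 21 immune) and, when genes of low count were kept in, to 373 (284, 89, 45 and 51). Higher calls numbered 34 with scaling by library totals and 20 with only days 21 and 28 in the fit. That last fit tested 8241 genes and called 66, with 46 lower, and 38 of its calls were among the 70. RLE scaling gave 76 calls, a stricter filter 75 and thinning to the smallest library 73, of which 70, 67 and 57 were among the 70. With no day 0 library in the fit, an alternative chosen after seeing the data, 84 genes were called, 58 of them among the 70. The 3 pairs of day 0 and day 21 libraries with a column number in common deviated from their day means with correlations of -0.0067 to 0.055. A block on that number cannot be fitted for this comparison, since every day 28 number occurs once. Leaving out 1 library gave 15 to 410 calls, 13 to 338 lower and 0 to 72 higher, 6 to 31 matrix and 1 to 22 immune genes. The lowest counts came without day 28 replicates 2 or 3 and the highest without day 28 replicate 1. The cause was not tested. With the replicate block, 60 genes were called (46 lower, 14 higher), 51 of them among the 70. Same-numbered libraries of the 2 days deviated from their day means with correlations of 0.0021 to 0.034 over 3 pairs, so the number was not taken to pair them.

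Signs turned in 6 named genes that were not called. The log2 fold change of C3 was -0.039 with the replicate block and -0.083 to 1.39 without 1 library, that of Hspa5 0.0070 with library totals and -1.04 to 0.30 and that of P4ha1 -0.095 with the block and -1.98 to 0.71. Without 1 library, Ifit3 ran from -0.20 to 0.79, Rplp0 from -0.22 to 0.050 and S100a8 from -8.36 to 3.15. Of the values of named genes under the alternatives, 910 kept direction and side of the threshold, 139 fell short of it, 15 newly passed it and 16 turned sign. Of the list medians, 535 stayed within the spread between replicates and 22 moved beyond it.

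With 440675 to 878310 counts per library and 3 libraries on day 28, changes of 2-fold were rarely detectable, and genes with under about 3 counts per library give bounds only.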
